A study of Mus musculus with 8 samples.

Results

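Acyl-CoA thioesterases split acyl-CoA esters into a free acid and coenzyme A, and the 8 genes described here place this reaction in different compartments of the liver cell. The genes were chosen by symbol, as Acot1, Acot2, Acot3, Acot4, Acot7, Acot8, Acot12 and Acot13, and all 8 were on the array, out of 16593 genes with a symbol. They carried 16 probes, of which 15 passed the filter on dim probes, and all 8 genes were among the 8815 genes tested. RNA came from whole livers of 4 Mfn1 LKO mice (637, 638, 651 and 701) and 4 control mice (641, 658, 661 and 663) of the strain C57Bl6/Ntac, hybridised to Illumina mouse bead arrays. LKO is taken here to mean a liver knockout, and the controls are labelled Mfn1 wildtype. In both groups a high fat diet had been given for 8 weeks, and the livers were taken after a fast of 6 hours. The titles of both groups carry the name AlbCre, a Cre recombinase under the albumin promoter that acts in hepatocytes, and whether the control mice carried Cre is not settled by the labels. The sources used here do not give the age of the mice. Each array is a separate mouse. The limma p-values set the difference between groups against the spread between mice within groups, estimated with help from all genes.

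As background, the enzymes belong to a pair of unrelated families. Acot1 in the cytosol, Acot2 in the mitochondrial matrix, and Acot3 and Acot4 in peroxisomes share an alpha/beta hydrolase fold, and their mouse genes lie side by side. Acot7 and Acot12 in the cytosol, Acot8 in peroxisomes and Acot13 at mitochondria have the hotdog fold. In liver several of the hydrolase-fold genes are known targets of PPAR-alpha, the nuclear receptor that turns on fatty acid oxidation in fasting and fat feeding. By freeing coenzyme A, these enzymes set how much acyl-CoA is left for oxidation, lipid synthesis or export from the organelle.

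Mfn1, the targeted outer membrane fusion gene, was checked before the thioesterases. Its brightest probe averaged 7.08 in Mfn1 LKO livers and 8.62 in control livers on the log2 scale of the normalised signal. This was a log2 fold change of -1.54 (SE 0.064, limma adjusted p = 4.05e-06). A further probe gave -1.57, and another, near background in both groups, gave 0.012. Mfn1 was the only gene of 8815 (0.0113%) that passed an adjusted p of 0.05. Array medians lay between 96.4 and 103.9 signal units, and the correlation between arrays over all genes tested lay between 0.985 and 0.995. Of the hepatocyte markers, Ttr (14.00 in Mfn1 LKO livers and 13.96 in control livers) and Apoa1 (14.00 and 13.99, in the same order) were near the top of the log2 scale. Serpina1a gave a log2 fold change of 0.36, Cps1 of -0.21 and Ass1 of -0.065, and over the 6 hepatocyte markers tested the median was 0.027. The only Alb probe that passed the filter was dim, at 6.33 in Mfn1 LKO livers and 6.28 in control livers. The lowest of all probe signals was 5.65 and the median of all probes 6.02.

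None of the 8 thioesterase genes passed the test between Mfn1 LKO and control livers. The 2 peroxisomal genes of the hydrolase fold had the largest differences, 1.44-fold higher on average in Mfn1 LKO livers for Acot3 and 1.27-fold for Acot4. Acot1 was 1.26-fold higher on average, a difference carried by a single mouse. Acot13 was 1.11-fold higher, and the log2 fold changes of Acot2, Acot7, Acot8 and Acot12 lay between -0.030 and 0.070. At an unadjusted p under 0.05 there was 1 of the 8 genes, Acot4, where 10.6% of all genes tested lay below that value. The log2 fold change was above 0 for 6 of the 8 genes, against 44.6% of all genes, and its median over the 8 was 0.11, against -0.012 over all genes. That median was 0.070 without Mfn1 LKO mouse 637, 0.073 without mouse 651, and 0.020 without mouse 637 and control 658. In none of the 8 were the 2 groups free of overlap, where 6.11% of all genes were. In bulk liver, fewer cells of a type and less RNA per cell cannot be told apart.

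**Figure D1:**
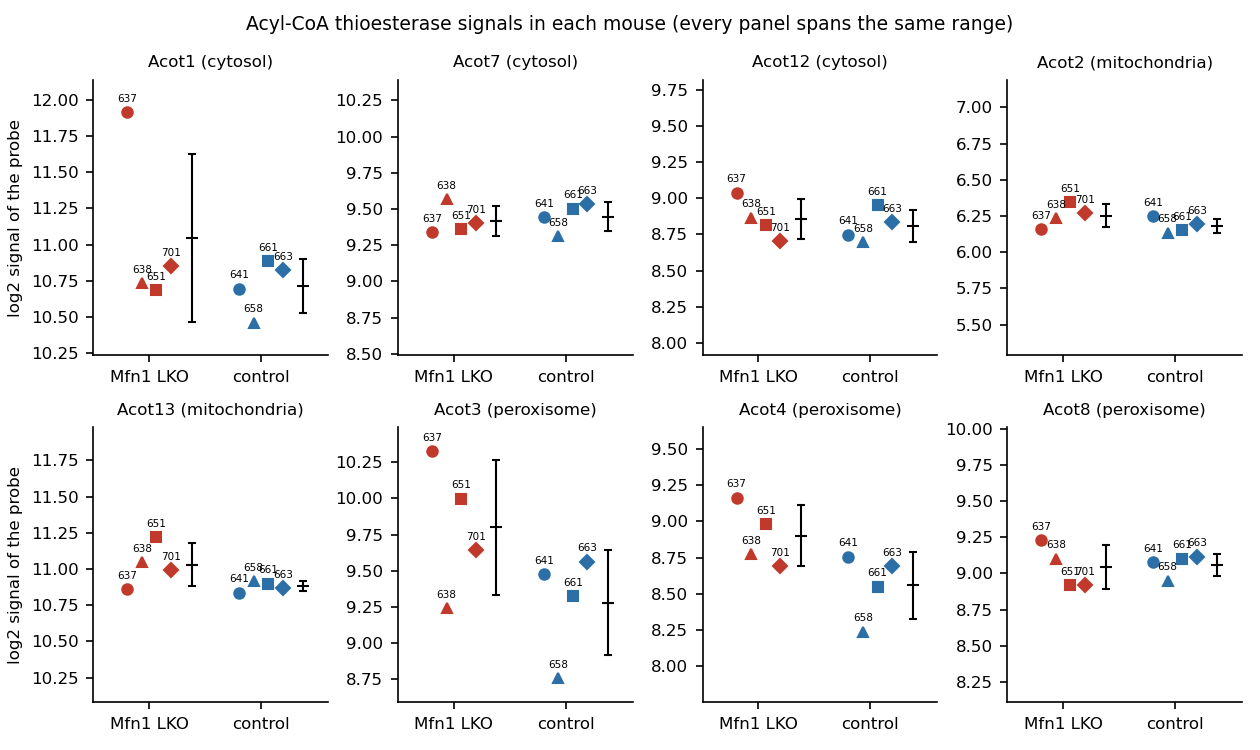
Log2 normalised signal of the probe used for each thioesterase gene, with each mouse as a point labelled by its number, Mfn1 LKO on the left (red) and control on the right (blue), and the group mean ± SD as a black bar (n = 4 each). Every panel spans the same range. Acot1, Acot3 and Acot4 vary most between mice, and mouse 637 stands alone for Acot1 at 11.91.

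Among the peroxisomal enzymes, Acot3 hydrolyses long-chain acyl-CoAs. Its log2 signal was 10.32, 9.24, 10.00 and 9.64 in Mfn1 LKO mice 637, 638, 651 and 701, and 9.48, 8.76, 9.32 and 9.56 in control mice 641, 658, 661 and 663. In Mfn1 LKO mice 637, 651 and 701 it was above every control, while mouse 638 lay below controls 641, 661 and 663. The means were 9.80 ± 0.47 in Mfn1 LKO livers and 9.28 ± 0.36 in control livers (SD, n = 4 each), with a log2 fold change of 0.52 (95% interval -0.0012 to 1.04, limma adjusted p = 0.472). Without Mfn1 LKO mouse 637 the log2 fold change was 0.35, without control mouse 658 it was also 0.35, and without both, a choice made after seeing the data, it was 0.17.

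Acot4, which in mouse acts on succinyl-CoA and on the CoA esters of other dicarboxylic acids, had a log2 signal of 9.16, 8.77, 8.98 and 8.69 in Mfn1 LKO mice 637, 638, 651 and 701. In control mice 641, 658, 661 and 663 it was 8.76, 8.24, 8.55 and 8.69. In mice 637, 638 and 651 Acot4 was above every control, mouse 638 only just, whereas mouse 701 lay inside the control range. The means were 8.90 ± 0.21 in Mfn1 LKO livers and 8.56 ± 0.23 in control livers (SD, n = 4 each). The log2 fold change was 0.34 (95% interval 0.055 to 0.63) with an unadjusted p of 0.0242, rank 558 among all genes, and a limma adjusted p of 0.382. It was 0.26 without Mfn1 LKO mouse 637, 0.24 without control 658 and 0.15 without both, and it did not pass in any of the 20 other settings tried (lowest adjusted p = 0.356).

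Acot8, the peroxisomal hotdog enzyme with a broad choice of acyl-CoAs, did not follow its peroxisomal neighbours in mean level. Its signal was 9.23, 9.10, 8.92 and 8.92 in Mfn1 LKO mice 637, 638, 651 and 701, and 9.08, 8.95, 9.10 and 9.11 in control mice 641, 658, 661 and 663. The control mice all lay inside the range of the Mfn1 LKO mice. The log2 fold change was -0.019 (95% interval -0.19 to 0.16, limma adjusted p = 0.963), and 2 further probes gave 0.00032 and 0.12, the last from a dim probe with means of 6.33 in Mfn1 LKO livers and 6.21 in control livers.

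In the cytosol, Acot1, an enzyme of long-chain acyl-CoAs, had the widest spread of the members within the Mfn1 LKO mice, whereas over all 8 mice Acot3 spanned more. Its log2 signal was 11.91, 10.73, 10.68 and 10.85 in Mfn1 LKO mice 637, 638, 651 and 701, and 10.70, 10.46, 10.88 and 10.82 in control mice 641, 658, 661 and 663. Mouse 637 was above all other mice, and the other 3 Mfn1 LKO mice lay inside the control range. In the deposited intensities mouse 637 had 3701 signal units, the other Mfn1 LKO mice 1649 to 1915 and the control mice 1226 to 2193. The second Acot1 probe had the same shape, with 8.998 in mouse 637, 7.65 to 7.94 in the other Mfn1 LKO mice and 7.58 to 8.02 in controls. The mean was 11.04 ± 0.58 in Mfn1 LKO livers and 10.72 ± 0.19 in control livers (SD, n = 4 each), a log2 fold change of 0.33 (95% interval -0.21 to 0.87, limma adjusted p = 0.680). Without mouse 637 it was 0.039 (limma adjusted p = 0.902), and without mouse 637 and control 658 it was -0.046.

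Acot12, the cytosolic acetyl-CoA hydrolase of liver, had 9.04, 8.87, 8.81 and 8.70 in Mfn1 LKO mice 637, 638, 651 and 701, and 8.75, 8.70, 8.95 and 8.83 in control mice 641, 658, 661 and 663. Apart from mouse 637, all values lay in a common range. The log2 fold change was 0.048 (95% interval -0.13 to 0.23, limma adjusted p = 0.883), and -0.013 without mouse 637. Acot7, best known as a thioesterase of neurons, had 4 probes, and their log2 fold changes were -0.030, -0.084, -0.088 and -0.14, all below 0. The brightest averaged 9.42 ± 0.10 in Mfn1 LKO livers and 9.45 ± 0.10 in control livers (SD, n = 4 each, limma adjusted p = 0.918). Of all genes tested, 6.11% had no overlap on their brightest kept probe, and over all probes this was not counted. For the dimmest Acot7 probe the groups did not overlap, with 6.60 to 6.66 in Mfn1 LKO livers and 6.69 to 6.92 in control livers. Its adjusted p in the limma fit of all 25697 probes was 0.541, where 3 probes (0.0117%) passed and 0 of the 16 thioesterase probes did. The neuronal markers Syp and Tubb3 were at 6.11 and 6.09 in Mfn1 LKO livers and at 6.04 and 6.10 in control livers, near the median of all probes. Snap25 and Stmn2 did not pass the filter.

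**Figure D2:**
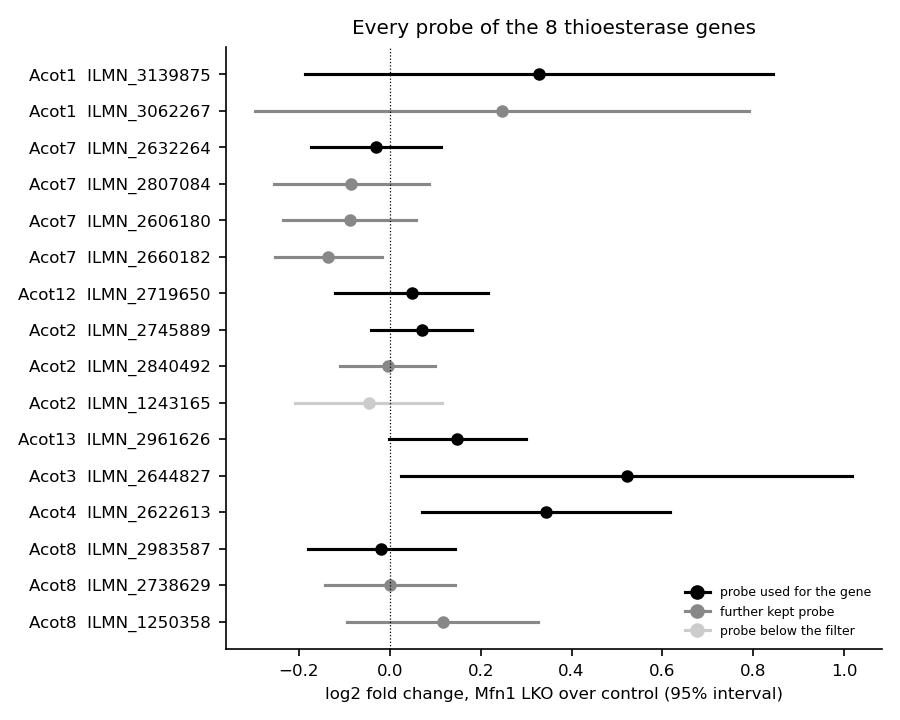
Log2 fold change, Mfn1 LKO over control, of all 16 probes of the 8 genes, with 95% intervals from the fit of all probes; black marks the probe used for the gene, grey a further probe and light grey the Acot2 probe below the filter. The 4 Acot7 probes all lie left of 0, the Acot3 and Acot4 probes right of it, and the Acot1 intervals are the widest.

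For the mitochondrial enzymes the signals differed in quality. Acot13, also called Them2, which works with the lipid transfer protein encoded by Pctp, was bright, with 10.86, 11.05, 11.22 and 10.99 in Mfn1 LKO mice 637, 638, 651 and 701, and 10.84, 10.92, 10.90 and 10.87 in control mice 641, 658, 661 and 663. Mice 638, 651 and 701 were above every control, and mouse 637, the highest mouse for Acot1, Acot3, Acot4, Acot8 and Acot12, was the lowest Mfn1 LKO mouse here. The control mice lay close together (SD 0.035), and the Mfn1 LKO mice were more spread (SD 0.15). The log2 fold change was 0.15 (95% interval -0.015 to 0.31, limma adjusted p = 0.519). It was 0.085 without Mfn1 LKO mouse 651 and 0.20 without mouse 637.

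Acot2, the matrix enzyme of long-chain acyl-CoAs, was dim on all 3 of its probes. The brightest averaged 6.25 ± 0.077 in Mfn1 LKO livers and 6.18 ± 0.050 in control livers (SD, n = 4 each), where the median of all probes was 6.02. Its log2 fold change was 0.070 (limma adjusted p = 0.699), 0.039 without Mfn1 LKO mouse 651, and the other probes gave -0.0050 and -0.046. At signals this close to background the interval does not bound a change in the transcript.

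**Figure D3:**
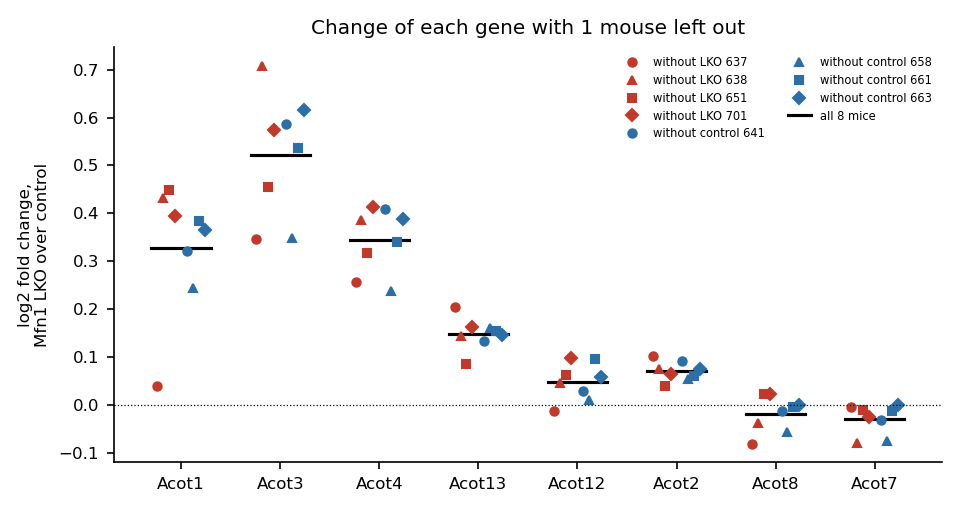
Log2 fold change, Mfn1 LKO over control, of each thioesterase gene with all 8 mice (black line) and with each mouse left out in turn (red, an Mfn1 LKO mouse left out; blue, a control left out). Acot1 is at 0.039 without mouse 637, and Acot3 at 0.35 without mouse 637 or control 658.

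The genes Acot2, Acot1, Acot4 and Acot3 follow each other in this order on chromosome 12 (GRCm38.p6), at 83987861 to 83993877, 84009502 to 84017670, 84037254 to 84044723 and 84052144 to 84060400. Acot5 and Acot6, peroxisomal relatives in mouse, come next, at 84069077 to 84076024 and 84100654 to 84109783, and their probes did not pass the filter. Acot13 and Acot12 lie apart on chromosome 13, at 24817955 to 24831489 and 91741326 to 91786148, Acot8 on chromosome 2 at 164792768 to 164820219, and Acot7 on chromosome 4 at 152178100 to 152271855. Of the neighbours, Acot3 and Acot4 varied most alike between mice. With each group's mean removed, Acot3 was 0.52 above its group in Mfn1 LKO mouse 637 and 0.56 below it in mouse 638, and Acot4 was 0.26 above and 0.13 below. In control mouse 658 both were low, by 0.52 and 0.32. Over the 8 mice Pearson's r was 0.90 (exact permutation p = 0.0104 within groups) and Spearman's rho 0.90 (exact permutation p = 0.00868). After adjustment over the 28 pairs of members neither passed (adjusted exact permutation p = 0.194 and 0.243). Without mice 638 and 658, the farthest from the median of Acot3, r was 0.93. It was 0.87 without mouse 637 and 0.79 without mice 637 and 658. The 2 genes were read on the same arrays, and the sequences of the probes were not used here, so whether 1 probe also reads a near-identical neighbour was not tested.

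No pair of the 28 passed. Acot8 and Acot12, on different chromosomes, had r = 0.85 and rho = 0.76 (exact permutation p = 0.0139 and 0.0382, adjusted 0.194 and 0.535). For this pair r was 0.81 without mice 637 and 651, 0.74 without mouse 637 and 0.69 without mice 637 and 658. Acot1 had r = 0.81 with Acot8 and 0.78 with Acot12 (exact permutation p = 0.0260 and 0.0313, adjusted 0.219 each), with rho of 0.60 and 0.62 (exact permutation p = 0.243 and 0.135, adjusted 0.572 each). Without mouse 637 both values of r were 0.61, and without mice 637 and 661, the farthest from the median of Acot1, they were 0.54 and 0.28. Acot1 with Acot3 gave r = 0.70 and rho = 0.64 (exact permutation p = 0.0938 and 0.122, adjusted 0.438 and 0.572), and Acot1 with Acot2, the nearest neighbour and the dim gene, gave r = -0.63 and rho = -0.52 (exact permutation p = 0.271 and 0.262, adjusted 0.506 and 0.572), with r = 0.58 and 0.037 without mice 637 and 661.

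**Figure D4:**
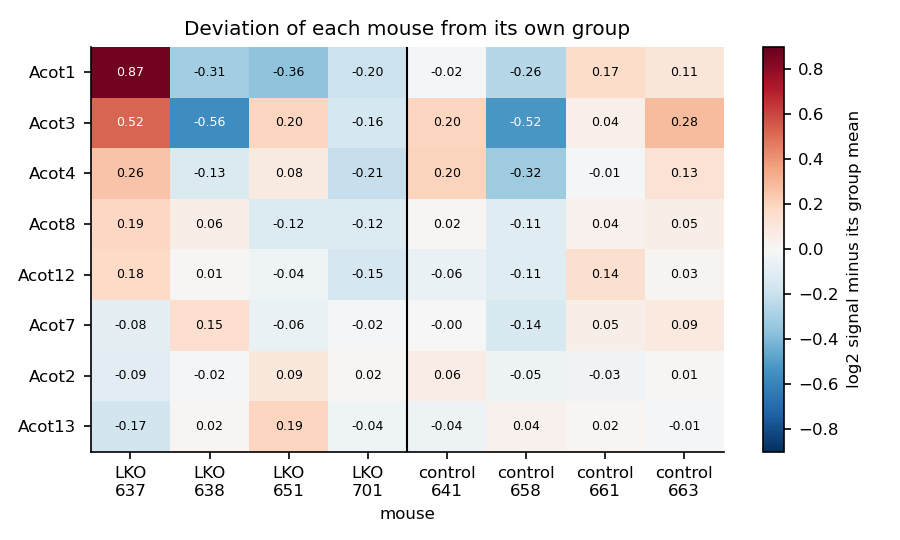
Log2 signal of each thioesterase gene in each mouse minus the mean of that mouse's group, Mfn1 LKO mice on the left and control mice on the right; red is above the group mean and blue below it. Mouse 637 is above its group for Acot1 (0.87), Acot3 (0.52), Acot4 (0.26), Acot8 (0.19) and Acot12 (0.18), and control 658 is below its group for all of these.

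The promoter windows of Acot1, Acot4 and Acot3 are shown because these neighbours had the largest differences between mice, and that of Acot12 because it held the closest match to the motif searched. They run from 250 bases before to 50 bases after the transcript start in RefSeq (GRCm38.p6), read in the direction of the gene. Windows were matched by gene ID for 7 of the 8 genes, all but Acot13. For Acot4, Acot7, Acot8 and Acot12 the start lies inside the gene span given above, and for Acot3 the first of 2 listed windows was taken. The motif searched was AGGTCANAGGTCA on both strands, the direct repeat bound by PPAR-alpha with its partner RXR, in which N is any base. Capitals mark the stretch of each window closest to it.
Acot1, chr12:84009252-84009551, plus strand: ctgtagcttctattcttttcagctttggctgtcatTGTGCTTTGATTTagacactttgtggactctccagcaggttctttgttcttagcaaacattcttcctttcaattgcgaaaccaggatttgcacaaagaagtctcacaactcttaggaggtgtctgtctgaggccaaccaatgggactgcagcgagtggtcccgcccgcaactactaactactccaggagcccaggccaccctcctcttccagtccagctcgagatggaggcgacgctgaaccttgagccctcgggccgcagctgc
Acot4, chr12:84038129-84038428, plus strand: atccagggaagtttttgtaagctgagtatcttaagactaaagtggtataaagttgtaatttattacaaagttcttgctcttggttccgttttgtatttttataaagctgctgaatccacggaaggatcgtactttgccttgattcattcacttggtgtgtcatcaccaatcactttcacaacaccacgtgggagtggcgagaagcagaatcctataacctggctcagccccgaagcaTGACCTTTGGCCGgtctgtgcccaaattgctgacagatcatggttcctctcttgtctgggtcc
Acot3, chr12:84051894-84052193, plus strand: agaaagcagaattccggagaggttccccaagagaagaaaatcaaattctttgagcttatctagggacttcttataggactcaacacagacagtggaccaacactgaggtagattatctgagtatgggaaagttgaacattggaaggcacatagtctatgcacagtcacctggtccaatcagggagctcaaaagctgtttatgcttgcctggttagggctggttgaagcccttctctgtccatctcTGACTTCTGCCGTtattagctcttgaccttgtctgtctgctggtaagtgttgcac
Acot12, chr13:91741271-91741570, plus strand: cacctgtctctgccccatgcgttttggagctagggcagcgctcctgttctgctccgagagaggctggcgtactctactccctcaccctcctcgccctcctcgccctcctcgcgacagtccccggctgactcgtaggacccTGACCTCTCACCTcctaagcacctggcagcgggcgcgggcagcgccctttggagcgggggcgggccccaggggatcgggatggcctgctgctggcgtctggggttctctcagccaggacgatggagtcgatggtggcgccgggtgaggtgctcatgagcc

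Counted from the start as base 1, the best match in the Acot12 window lay on the minus strand at -110 to -98 and differed from the motif at 1 base. Of all 32851 windows in the table, 0.554% held a match this close. In the Acot4 window the best match lay on the minus strand at -13 to -1 with 2 differences, which 3.86% of all windows reached. Those of Acot3 and Acot2 had 3 differences (24.6% of all windows), those of Acot1 and Acot7 had 4 (79.8%) and that of Acot8 had 5 (99.9%). The hexamer AGGTCA itself was found, on either strand, in the windows of Acot4, Acot3 and Acot12, and in 16.3% of all windows. For Acot12 and Acot4 it lies inside the stretch in capitals. A match describes letters in these windows and is not a measured binding site, and no match says only that these letters are not in the window.

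Other thioesterases and the related N-acyltransferases gave a similar picture. Of 15 genes listed 14 were on the array and 10 were tested. Of the 10, 0 passed, against 0.0113% of all genes, and 9 lay above 0, against 44.6% of all genes. Their median log2 fold change was 0.041, against -0.012 over all genes. Baat, which conjugates bile acids with taurine or glycine and belongs to the family of Acot1, had the largest difference. Its log2 signal was 9.99, 10.30, 10.31 and 10.10 in Mfn1 LKO mice 637, 638, 651 and 701, and 9.93, 9.76, 9.67 and 9.40 in control mice 641, 658, 661 and 663. The groups did not overlap, where 6.11% of all genes had no overlap, and mouse 637 lay only just above control 641. The log2 fold change was 0.48 (95% interval 0.23 to 0.74, limma unadjusted p = 0.00166, limma adjusted p = 0.240). Of all genes tested, 10.6% had an unadjusted p under 0.05. Acot11, a hotdog thioesterase known for its role in brown fat, gave 0.16 on its brightest probe, and 0.16 and 0.18 on the others (adjusted p = 0.602 for the gene), and the gene value was 0.086 without Mfn1 LKO mouse 637 and 0.24 without mouse 701. Acnat2, a peroxisomal relative of Baat, gave 0.067, and 0.23 on a dimmer probe, and Them6 gave 0.091. The mitochondrial Acot9 and Acot10 gave -0.012 and 0.034, Them4 gave 0.016, and the lysosomal thioesterases Ppt1 and Ppt2 gave 0.048 and 0.026. Olah, the thioesterase that ends medium-chain fatty acid synthesis, gave 0.026 and was dim, with 6.002 in Mfn1 LKO livers and 5.98 in control livers.

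The lists of genes that make, bind or use acyl-CoA also had no member past the test. The lists that make or bind acyl-CoA or handle coenzyme A had medians close to that of all genes. Of 16 acyl-CoA synthetases and acyl-CoA binding proteins tested 8 were above 0 (median 0.0020). Acbd5, a peroxisomal acyl-CoA binding protein, was at -0.17 (adjusted p = 0.324, groups without overlap) and Acsl3 at 0.29. Acbd4 was at -0.11, or -0.061 with the mean of its kept probes. In 3 of the 16, all lower in Mfn1 LKO livers, the groups did not overlap, against 6.11% of all genes. Beside Acbd5 these were Dbi (-0.075), the small acyl-CoA binding protein, and Acbd6 (-0.057), both named after their values were seen. Of 13 genes of coenzyme A synthesis, transport and breakdown 5 were above 0 (median -0.037), with Ppcdc, an enzyme of coenzyme A synthesis, at 0.13 (groups without overlap), Slc25a42, the mitochondrial coenzyme A carrier, at -0.13, and Pank2 at 0.12, or 0.049 without control 658.

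Of 14 peroxisomal genes tested 11 were above 0, with a median of 0.048, and 0.021 to 0.098 with 1 mouse left out (lowest without control 658, highest without Mfn1 LKO mouse 651). Their leading genes Ehhadh (0.50, adjusted p = 0.270) and Pecr (0.56, adjusted p = 0.372), enzymes of chain shortening and of enoyl-CoA reduction, had differences near that of Acot3 (0.52), with Pecr at 0.37 without control 663, and Crat, a carnitine acetyltransferase, gave 0.19. Of 16 mitochondrial beta-oxidation genes 10 were above 0, with a median of 0.042, which was 0.0070 without Mfn1 LKO mouse 637 and -0.0061 without control 658. In 4 of them the groups did not overlap, all higher in Mfn1 LKO livers, against 6.11% of all genes in either direction. Hadh (0.42, adjusted p = 0.215), Eci2 (0.31, adjusted p = 0.276) and Eci1 (0.19, adjusted p = 0.294) led this list. With the mean of its kept probes Hadh was at 0.30.

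The targets of PPAR-alpha outside the thioesterases were mixed. Of 14 tested 8 were above 0, with a median of 0.023, which was -0.0087 without Mfn1 LKO mouse 637 and -0.014 without mouse 651. It was 0.0025 without control 658, and -0.040 without mice 637 and 658. The omega-hydroxylase gene Cyp4a14 was lower on average in Mfn1 LKO livers, with 11.69, 12.01, 11.80 and 11.22 in mice 637, 638, 651 and 701, and 12.23, 11.84, 12.42 and 12.32 in control mice 641, 658, 661 and 663. Of the Mfn1 LKO mice only 638 overlapped with the controls. The log2 fold change of Cyp4a14 was -0.52 (95% interval -0.90 to -0.15, limma adjusted p = 0.324), opposite in sign to those of Acot1, Acot3, Acot4 and Ehhadh. Mouse 637, high for Acot1, was not high for Cyp4a14. The part of PPAR-alpha in these differences was not tested. Cyp4a12a, a relative of Cyp4a14, gave 0.98 (adjusted p = 0.409), and 0.59 without control 661. Its control range was 9.68 to 11.87 and its Mfn1 LKO range 11.30 to 12.28. Of the partner and regulator genes 2 of 6 were above 0, with Nr1d1, a clock gene, at -0.27, the coactivator gene Ppargc1a at -0.14 and the nuclear receptor gene Hnf4a at 0.10. Without Mfn1 LKO mouse 637 Nr1d1 was at -0.17 and Hnf4a at 0.051. Without control 663 Ppargc1a was at -0.064 and Hnf4a at 0.066, and without control 658 Ppargc1a was at -0.22.

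**Figure D5:**
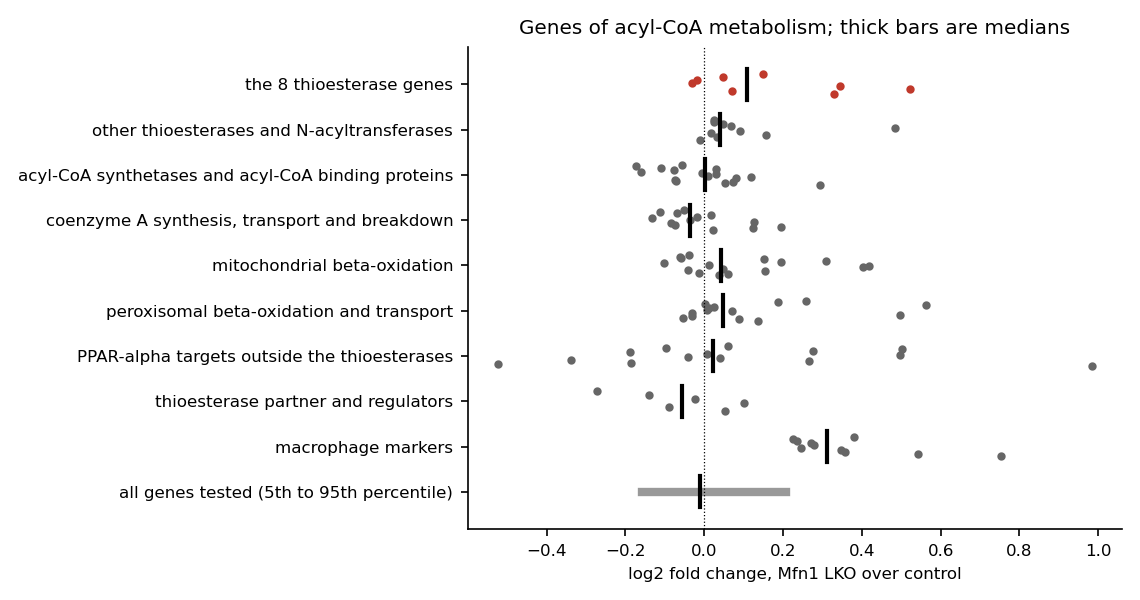
Log2 fold change, Mfn1 LKO over control, of each tested gene of the lists (points), with list medians as thick bars, and the 5th to 95th percentile of all genes tested as a grey bar. The 8 thioesterase genes (red) have a median of 0.11, the median of all genes is -0.012, and the macrophage markers have a median of 0.31.

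Markers of other cells were measured in the same livers. Of 13 macrophage markers 11 were on the array and 10 passed the filter, and all 10 were above 0 (median 0.31), with none past the test (Cd68 and Csf1r among those not tested). Their mean log2 signal relative to the mean over all mice was -0.16, 0.058, 0.40 and 0.43 in Mfn1 LKO mice 637, 638, 651 and 701, and -0.23, 0.048, -0.23 and -0.32 in control mice 641, 658, 661 and 663. Mouse 637, the highest mouse for Acot1, Acot3 and Acot4, had the lowest macrophage level of the Mfn1 LKO mice, and the part of these cells in the thioesterase differences was not tested. Of the adipocyte markers Cidea alone passed the filter, and Ucp1, Adipoq, Plin1, Fabp4 and Lep did not. Endothelial and stellate cell markers had medians of -0.011 and 0.028 over 5 genes each, and no skeletal muscle marker passed the filter. Of 4 bile duct markers listed 2 were tested, both dim, and Krt19 and Epcam were not tested. The 2 had opposite signs, and in each the groups did not overlap, against 6.11% of all genes. Sox9 gave 0.15 (limma adjusted p = 0.355) and Krt7 gave -0.11 (limma adjusted p = 0.494).

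For each member, the 3 other genes most alike were taken by Pearson's r over the 8 mice after removal of the group means, among all 8815 genes. With so many genes and 8 mice the highest values are large for any gene, and they are given as a description. For Acot1 they were Mtrf1, Pyroxd1 and Abcg8 (r = 0.98, 0.98 and 0.97). For Acot3 they were Zfp688, Tfap4 and Pik3c2g (0.96, 0.95 and 0.95), and for Acot4 Nudt16, Itga7 and Bicd2 (0.99, 0.99 and 0.97). For Acot8 they included Pex11g, a peroxisomal membrane protein gene (0.97), beside Brap and Nxpe2 (0.98 and 0.96), and for Acot12 Slc27a2, which encodes a very long chain acyl-CoA synthetase (0.97), beside Stx12 and Fbxo28 (0.99 and 0.97). For Acot13 they were Unc119b, Lipa, the lysosomal acid lipase gene, and Slc5a6, a vitamin transporter gene (0.99 each). For Acot7 they were Snrnp70, Col5a3 and Gprc5c (0.98, 0.96 and 0.94), and for Acot2 Emc10, Ppt1 and Inhba (0.98, 0.98 and 0.97).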

How the data were processed

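RNA of 8 livers was amplified with the Illumina TotalPrep kit and read on bead arrays, per the labels' protocols. The authors deposited linear signal intensities of 25697 probes, to judge by the values not background-subtracted, with no detection p-values, and log2 values of the same arrays. The deposited log2 values differed by at most 0.00662 from quantile normalized intensities. The labels give no further steps by the authors. No file held a column of another sample.

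Intensities were corrected with limma's normexp (offset 50), put on the log2 scale and quantile normalized. A probe was kept if 4 or more of the 8 arrays had it over the array's median (12755 probes), and the brightest of each gene was used. Symbols came from GEO's platform annotation: 23978 probes had 1 symbol, 0 several and 1719 none, and 23962 matched RefSeq by gene ID. Groups, from the titles, were compared with lmFit and eBayes (limma 3.58.1, R 4.3.3) in two-sided tests, with p-values adjusted by Benjamini-Hochberg for 8815 genes, or over 25697 probes. The offset shrinks fold changes at dim probes, and the quantile step may also do so. Precision is limited by having 4 arrays a group. Correlations used exact permutations within groups (576 arrangements, smallest p = 0.00174).

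Members, lists and the rule for named genes were chosen with earlier results of these data known. The rule took all members, Mfn1, every tested gene of the other thioesterases, the 3 smallest p of each other list and the 3 most alike genes, passing over unnamed gene models. Alternatives were other backgrounds, scalings, filters, probe rules, limma settings, and mice left out. Figures were drawn with matplotlib 3.10.9.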

Additional observations from a re-analysis of the deposited data

Results flagged for a closer look

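Single mice stood far from the others of their group in 4 of 92 groups of 4 mice, over 46 probes of the named genes, where chance gives about 1 in 20. The brighter Acot1 probe was at 11.91 in Mfn1 LKO mouse 637, against 10.68 to 10.85 in the other Mfn1 LKO mice. An Acot7 probe (ILMN_2606180) was at 7.01 in Mfn1 LKO mouse 651, against 7.18 to 7.19 in the others. The Mfn1 probe near background (ILMN_1232014) was at 5.68 in Mfn1 LKO mouse 701, against 5.86 to 5.87 in the others. Ppt2 was at 6.34 in control mouse 661, against 6.16 to 6.18 in the other controls.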

How the results depend on the processing

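No thioesterase gene passed in any of the 20 other settings, and of the 8 genes between 4 and 7 lay above 0 (5 to 7 with 1 mouse left out). Over all settings the log2 fold change lay between 0.17 and 0.71 for Acot3, 0.15 and 0.41 for Acot4, 0.085 and 0.22 for Acot13, 0.032 and 0.13 for Acot2, and -0.085 and -0.0015 for Acot7. Signs turned for values near 0 or with the named mice left out. Acot8 gave 0.0013 with cyclic loess and 0.033 with the mean of the kept probes. The second probe, probe Acot8 ILMN_2738629, gave -0.00082 with offset 16, -0.013 with a common 75th percentile and -0.0075 with array weights. The second Acot2 probe, probe Acot2 ILMN_2840492, gave 0.010 with a common median and 0.0029 with cyclic loess. Without mice 637 and 658, added after seeing the data, Acot1 gave -0.046 and -0.14 on its 2 probes, Acot12 gave -0.050, and the further Acot8 probes gave -0.064 and -0.028. With 1 mouse left out the range was 0.039 to 0.45 for Acot1 (second probe -0.057 to 0.39), -0.081 to 0.023 for Acot8 (second probe -0.055 to 0.054), -0.013 to 0.099 for Acot12, and -0.024 to 0.020 and -0.10 to 0.012 for the further Acot2 probes. It was -0.050 to 0.023 for Acot9, -0.074 to 0.11 for Acot10, -0.018 to 0.037 for Them4, -0.054 to 0.18 for Them6, -0.0032 to 0.067 for Ppt2, 0.0039 to 0.096 for Ppt1, 0.014 to 0.11 for Acnat2 and -0.012 to 0.068 for Olah. The cause of these changes was not tested.

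The number of genes past the threshold was 1, and 2 with no filter or with array weights, 1 to 3 with 1 mouse left out (3 without Mfn1 LKO mouse 701) and 3 without mice 637 and 658. The number of probes was 3, and 22 with a common 75th percentile, 9 with trend and robust, 28 without mice 637 and 658, and 2 to 4 with 1 mouse left out. The mitochondrial beta-oxidation median was -0.026 and the partner and regulator median -0.14 without mice 637 and 658, and the partner and regulator median lay between -0.10 and -0.0036 with 1 mouse left out. The median of all genes lay between -0.024 and -0.0012 under the scalings tried. No paired analysis was run because the labels give no pairing, batch or slide. Dim signals limit Acot2 and the dimmest probes of Acot7 and Acot8.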
